A study of Gallus gallus with 8 samples.

Results

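The genes described here are 150 liver transcripts that were lower in every pool of ascitic chickens than in every pool of healthy ones. They were chosen from a table of 14634 genes on a log2 scale. The 100 genes of highest mean were set aside, and among the remaining 14534 the 150 with the widest gap were taken, the gap being the lowest of 4 healthy values minus the highest of 4 ascitic values. Because the choice used these values, all differences between ascitic and healthy pools are given as a description of the chosen genes, with no test.

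The study sequenced liver messenger RNA of meat-type chickens that had developed ascites (water belly) or had stayed healthy. RNA from 4 birds at a time made up each of 8 pools, drawn from 32 livers, with 2 pools for each sex in each state of health. The birds of all groups, healthy ones included, were moved from 24 °C on day 21 to 18 °C from day 22 until the trial ended on day 48, and received high-energy feed. The labels also give day 42 for every pool, under a heading that does not say what it dates, so no age at sampling is assigned here. Disease was not assigned to birds, and pooling hides how far single birds differed.

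Ascites of fast-growing chickens accompanies high pressure in the lung circulation and failure of the right side of the heart, and cold raises the demand for oxygen that brings it on. The liver lies directly upstream of the right heart and is among the organs congested in this disease. It makes most plasma proteins and, in birds, most of the fatty acids of the body, and its transcriptome is dominated by a small number of very abundant messages. In pooled tissue, fewer cells of a type and less RNA per cell cannot be told apart. The table names genes by Ensembl ID only and 0 of these IDs could be matched to the gene names at hand, so the members are described by level, size of fall and pattern over pools. Members other than the leading pair are called by their rank in gap, and the tissue label was not checked against liver markers.

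The pools held 26459951 to 33193179 reads, and 2 of them need naming before the results. Healthy female 2 had a size factor of 0.483, where the other healthy pools had 0.857 to 0.945 and the ascitic ones 1.09 to 1.56. It exceeded all other pools by over 1 log2 unit for 1522 genes of the whole table. The pool labelled healthy male 1 lay between the sexes in 11 genes, of which it held 5587 normalized reads in sum. Those genes summed to 14036 and 14505 in the healthy females and to 6496 and 8973 in the ascitic females. In each of the other 3 male pools they summed to 6.43 or less. None of those 11 genes, which were picked after their values were seen, belongs to the 150. Results that rest on these pools are given with and without them.

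The gene with the widest gap was ENSGALG00000043779, an abundant transcript of healthy liver. Normalized reads, which are reads divided by the size factor of the pool, were 100644 and 49439 in the healthy females and 66869 and 36254 in the healthy males. In the ascitic pools they were 2549 and 1038 in females and 3306 and 736 in males. Every healthy pool held at least 11.0 times the reads of the highest ascitic pool, and neither sex stood above the other in ascites. The means were 63302 ± 27874 and 1907 ± 1224 normalized reads (SD, n = 4 each), a ratio of 33.2, and the log2 difference on the deposited scale was -5.17.

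ENSGALG00000041767 had the second widest gap at a lower level. It held 4155 and 7360 normalized reads in the healthy females, 4662 and 3282 in the healthy males, 444 and 467 in the ascitic females and 392 and 220 in the ascitic males. Healthy female 2 was the highest of the 8 pools and ascitic male 2 the lowest. The means were 4865 ± 1758 and 381 ± 112 normalized reads (SD, n = 4 each), a ratio of 12.8. Without healthy female 2 and the pool labelled healthy male 1 the ratio was 9.77 here and 35.9 for ENSGALG00000043779.

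**Figure D1:**
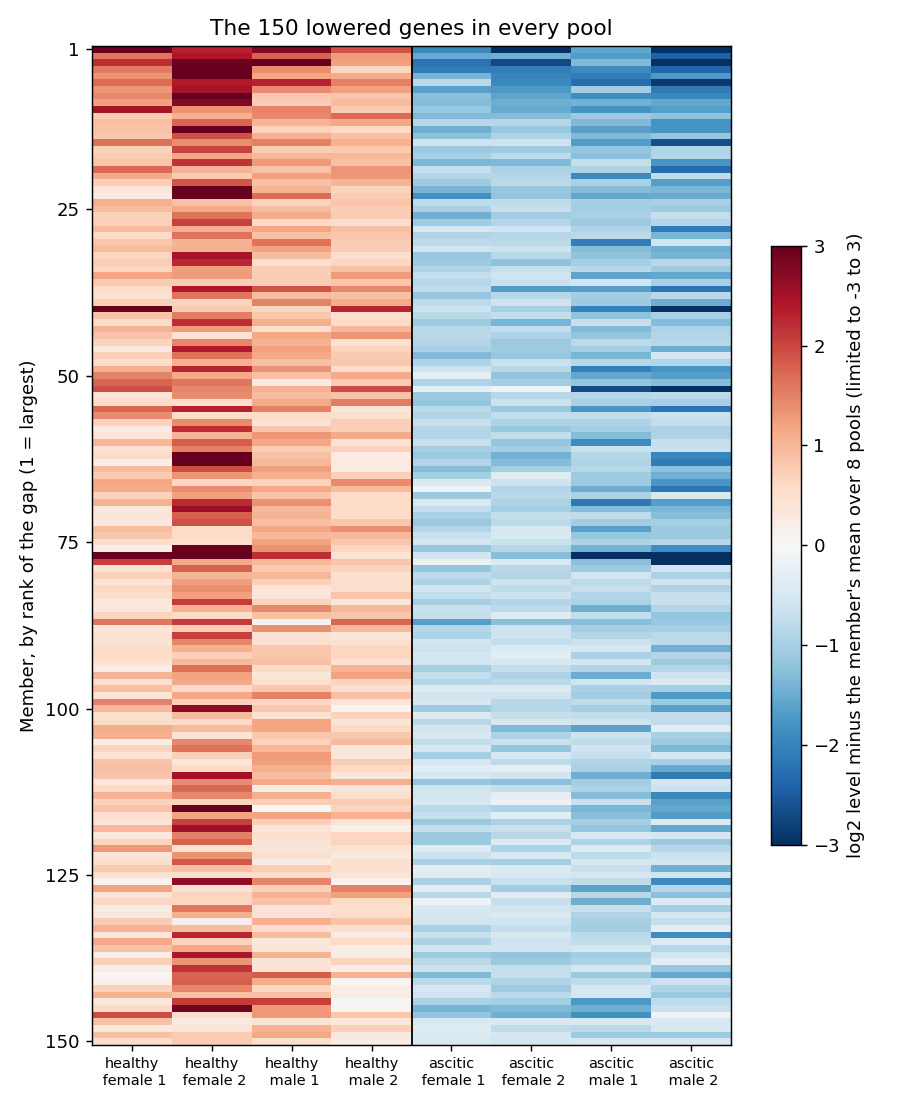
Log2 level of each of the 150 members (rows, widest gap at the top) in each of the 8 pools (columns), as the difference from the member's own mean over the pools; red is higher and blue is lower. Healthy pools are on the left of the line and ascitic pools on the right, and the darkest red column is healthy female 2, the highest healthy pool for 94 of the 150 members.

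The next members showed how differently healthy pools could behave under the same gap. The member of rank 3 held 20349 and 33827 normalized reads in healthy females, 35312 and 10374 in healthy males, 908 and 644 in ascitic females and 1713 and 468 in ascitic males. The member of rank 4 held 9311 and 96571 in healthy females, 8373 and 4893 in healthy males, 709 and 726 in ascitic females and 815 and 572 in ascitic males. For rank 3 the highest pool was 3.40 times the lowest in health and 3.66 times in ascites. For rank 4 the ascitic pools lay within a factor of 1.43, and healthy female 2 was 10.4 times the next healthy pool. That pool gave rank 4 the largest ratio of means of the set, 42.2. The lowest healthy pool was 6.06 times the highest ascitic pool for rank 3, and marginally less for rank 4.

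**Figure D2:**
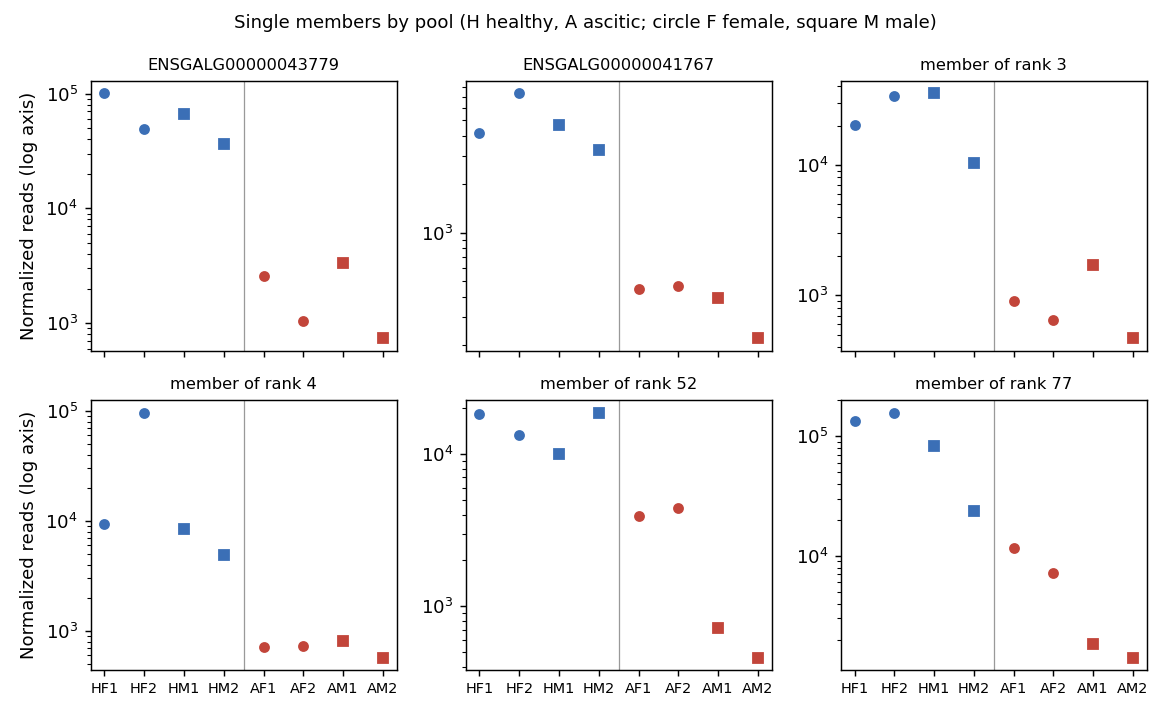
Normalized reads (log axes) of 6 members in each of the 8 pools, healthy in blue and ascitic in red, females as circles and males as squares. All healthy points lie above all ascitic points by the choice of the genes; the member of rank 4 has 1 healthy pool far above the rest, and those of rank 52 and 77 have both ascitic female pools above both ascitic male pools.

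Over the whole set the healthy mean exceeded the ascitic mean by a median factor of 5.17, with an interquartile range of 3.85 to 8.53. A ratio of at least 4 was seen for 104 members, of at least 8 for 39 and of at least 16 for 9, and 1 member lay under 2. The more cautious ratio, the lowest healthy pool over the highest ascitic pool, had a median of 2.39 and ran from 1.64 to 11.0 over the 149 members with any read in ascites. On the deposited scale the median log2 difference was -1.92, from -0.93 to -5.17, against 0.02 for all tested genes. Without healthy female 2 and the pool labelled healthy male 1 the median ratio was 3.96 and 74 members reached 4-fold, and without healthy female 2 alone these were 4.15 and 80.

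Separation of the states was common in this table, which sets the scale for the 150. All 4 ascitic pools lay below all 4 healthy pools for 1479 of the 14534 genes open to the choice, or 10.2%. Limma fits a linear model to each gene and moderates its variance over all genes. In it, 149 of the 149 members that passed the filter on low reads were lower in ascites (adjusted p under 0.05). The share of all tested genes was 4.47%. Nothing follows from the count of members, since the same contrast chose them. The choice was about the gap and not the average. Among the other genes open to it, 29 had a larger average fall than the median member, and in 11 of those the pools of the 2 states overlapped. In the opposite direction, 164 genes had a gap at least as wide as the narrowest of the 150.

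At the edge of the set the gap was 0.697, 0.696 and 0.691 log2 units for ranks 148 to 150 and 0.690, 0.687 and 0.685 for the 3 genes just outside. The last member held 325 normalized reads in its lowest healthy pool and 189 in its highest ascitic pool. The first gene outside held 9469 and 5854. It was close to the last member in gap only, with a healthy mean of 22055 against 402 normalized reads. Its log2 difference was -2.28 against -1.01. Of the 100 abundant genes set aside, 33 had all ascitic pools below all healthy ones and 4 had a gap wide enough to have entered.

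The members covered 4 orders of magnitude in healthy liver. Their healthy means ran from 8.06 to 100101 normalized reads, with a median of 837. At 10000 or more lay 21 members, 6.86% of the genes at that level that were open to the choice, with a median ratio of 4.81. Between 1000 and 10000 lay 50 members (2.32% of such genes there, median ratio 4.31), between 100 and 1000 lay 63 (1.11%, 5.06), and under 100 lay 16 (0.250%, 10.6). Members were a larger share of the abundant genes open to the choice, from which the 100 of highest mean had been set aside, although the scale itself compresses the values of scarce genes and makes a wide gap harder to reach for them.

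**Figure D3:**
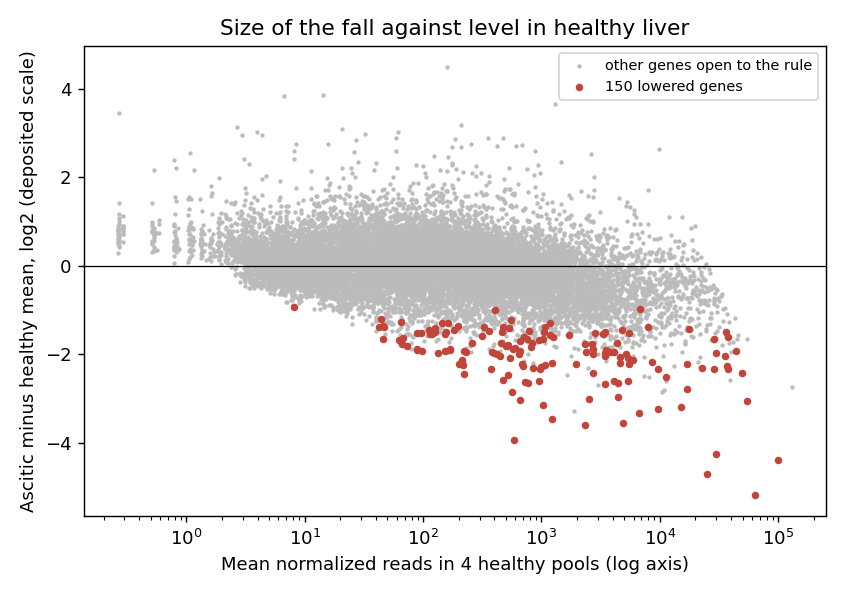
Mean normalized reads in the 4 healthy pools (log axis) against the ascitic minus healthy mean on the deposited log2 scale, for the 150 members (red) and the other genes open to the choice (grey). The members lie along the lower edge from 8.06 to 100101 reads, and the smallest log2 falls among them belong partly to scarce genes, whose values this scale compresses.

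That compression shows in the scarce members. Those under 100 reads had the highest median ratio, 10.6, but a median log2 difference of -1.57, the smallest of the 4 levels, while those at 10000 or more had -2.32. The scarcest member, of rank 147, held 14 and 2 reads in the healthy female pools and 6 and 5 in the healthy male pools, against 0 in each ascitic pool. It was at least 14.1-fold lower in ascites, counting 3 reads over the 4 ascitic pools as the most that 0 allows. It was the only member that did not pass the filter on low reads. At the other end, 20 members still held 1000 or more normalized reads in every ascitic pool.

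A few members carried most of the reads. In the healthy pools the 10 largest held 52.2% of all reads of the set, the largest alone 10.3%, and the 75 smallest together 2.67%. As a share of all reads of a pool, which involves no size factor, the set held 2.99% and 2.64% in healthy females, 2.53% and 2.05% in healthy males, 0.912% and 0.830% in ascitic females and 0.565% and 0.655% in ascitic males. The lowest healthy share was 2.25 times the highest ascitic share, and in both states the female pools lay above the male pools. The means were 2.55% ± 0.388 and 0.741% ± 0.159 (SD, n = 4 each), a ratio of 3.45.

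Whether healthy female 2 stood out in that measure depended on the denominator. Its share of all reads, 2.64%, lay inside the range of the other healthy pools. But it held 64.3% of its reads in the 100 abundant genes set aside, against 51.1% to 60.7% in the other pools. Leaving those genes out of the denominator made its share the highest of the 8 pools. It was then 7.40%, against 6.95%, 6.42% and 4.89% in the other healthy pools. On the deposited scale healthy female 2 was the highest healthy pool for 94 of the 150 members (62.7%), beside 37.1% of all tested genes. For 37 members (24.7%) it was more than 1 log2 unit above every other pool, beside 10.4% of all genes. The choice had already placed the ascitic pools below every healthy pool for the members, so these 2 shares are not alike. When values were scaled by total reads in place of size factors, it was the highest healthy pool for 48 members (32.0%) and the lowest for 67 (44.7%), beside 19.3% and 59.2% of all tested genes. With the largest member left out, the set held 2.29% ± 0.243 of the reads in health and 0.716% ± 0.138 in ascites (SD, n = 4 each).

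**Figure D4:**
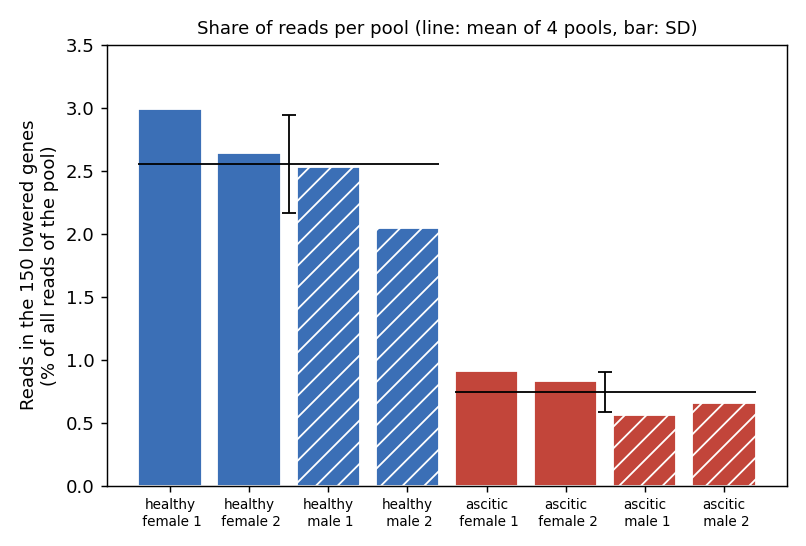
Reads in the 150 members as a percentage of all reads of each pool, healthy in blue and ascitic in red, male pools hatched; lines are means of 4 pools and bars are SD. The healthy pools lie between 2.05% and 2.99% and the ascitic pools between 0.565% and 0.912%.

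With all pools the ascitic pools were more alike than the healthy ones in most of these genes, as in the table as a whole. The span between the highest and lowest pool had a median of 1.03 log2 units in health and 0.63 in ascites, and it was wider in health for 107 of the 150. All tested genes showed the same order, with medians of 0.98 and 0.57. Without healthy female 2 the median span of the members in health was 0.55, below that in ascites, although over fewer pools. Healthy spans ran from 0.11 to 4.29 log2 units. The steadiest member, of rank 36, held 120 and 116 normalized reads in healthy females, 117 and 127 in healthy males, 21.2 and 26.9 in ascitic females and 29.4 and 17.3 in ascitic males. The member with the smallest ratio, 1.96, of rank 125, was as steady: 6698 and 6998 in healthy females, 7129 and 6481 in healthy males, 3807 and 3483 in ascitic females, 3451 and 3192 in ascitic males.

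The scaling of the pools bore on the size of the gap but not on its direction for most members. Ascitic pools had the larger size factors, and with total reads in their place the median log2 difference of all tested genes was 0.48, and that of the members was -1.42. All 150 members were then still lower on average in ascites. The pools still did not overlap for 130 of them, beside 2.75% of the genes open to the choice, and the median gap was 0.51 in place of 1.04 log2 units. Both counts describe genes chosen for this separation from the same reads, and they test nothing. The choice repeated on that scale kept 105 of the 150. A gap as wide as the narrowest of the 150 was then found for 52 genes, and in the opposite direction for 450.

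The genes were also read in a pool that had no part in choosing them. The 150 genes of widest gap were picked again from 7 pools at a time and then read in the pool left out. Left-out ascitic pools lay below all 4 healthy pools for 149 (female 1), 150 (female 2), 149 (male 1) and 144 (male 2) of the 150 genes picked, beside 21.4%, 21.5%, 21.5% and 25.3% of all genes open to the choice. Left-out healthy pools lay above all 4 ascitic pools for 146 (female 1), 142 (female 2), 148 (the pool labelled male 1) and 147 (male 2), beside 30.7%, 38.7%, 32.7% and 28.1%. The 4 pools of the other state had taken part in the choice, so these counts are a description and no test of the difference between the states. Among all genes whose states did not overlap in the 7 pools, the pool left out also lay beyond the other state for 76.2% to 91.2% when it was ascitic and for 70.5% to 85.8% when it was healthy. Between 111 and 132 of the genes picked each time belonged to the original set. With total reads the counts ran from 116, for healthy female 2, to 145, for ascitic female 2, beside 17.2% and 7.52% of the genes open to the choice. The size factors came from all 8 pools in every case.

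Both sexes took part in the fall, as the choice required. The median log2 difference between ascitic and healthy pools was -1.90 in females and -1.86 in males. The fall was larger in females for 84 members and in males for 66, and by more than 1 log2 unit for 13 in each direction. That split rested on healthy female 2. Without it the fall was larger in males for 105 of the 149 tested members, beside 48.8% of all tested genes, with a median male minus female difference in the fall of -0.31 log2 units, against 0.12 with all pools. Without both pools that stood apart it was larger in males for 92 (61.7%), beside 48.5% of all genes. With total reads it was larger in males for 96 (64.4%), no larger a share than the 66.0% of all genes. The interaction of sex and status, which the choice did not use, passed 0 members in limma (smallest adjusted p = 0.601), as it passed 0% of all tested genes, and 5 members had an unadjusted p under 0.05, beside 6.07% of all tested genes. Limma-voom, weighted by sample or not, passed 0 members. Without healthy female 1, which leaves healthy female 2 alone in its group, 28 members (18.8%) passed in limma, 27 of them with the larger fall in females, beside 16.2% of all tested genes.

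With all pools the level of these genes, as opposed to their fall, tended to be higher in female than in male liver. Within healthy pools that order rested on healthy female 2, as given below, and no single difference passed with all pools in limma. All members were read in the same 8 pools, 2 per sex in each state. The counts of members given here and below are therefore not independent observations of sex. Male minus female, adjusted for status, was below 0 for 123 of the 149 tested members (82.6%), beside 52.5% of all tested genes, with a median of -0.27 log2 units against -0.02. Limma passed 0 members (smallest adjusted p = 0.250) and 0% of all tested genes. At an unadjusted p under 0.05 there were 15 members, all lower in males, beside 2.93% of tested genes lower and 3.81% higher in males. Limma-voom also passed 0 members, and with sample weights it passed 2, beside 0.734% of all tested genes. Without the pools that stood apart a healthy group keeps 1 pool, so the counts from those fits are a description only. Limma passed 1 member without the pool labelled healthy male 1, beside 0.189%, and 2 without both pools that stood apart, beside 0.748%. With total reads 93 members were below 0, with a median of -0.09, beside 35.6% of all genes. Without healthy female 2 there were 100, with a median of -0.10, beside 48.8% of all genes. Standard errors had a median of 0.29, about the size of the typical difference.

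Within ascitic pools, which include neither of the 2 pools that stood apart, the same order was seen. Both female pools lay above both male pools for 57 members (38.0%), beside 22.4% of all tested genes, and both male pools above both female pools for 12 (8.00%), beside 24.6%. With total reads these were 61 and 3 members, beside 19.6% and 18.8%. Among the 57, the female mean was 1.10 to 9.77 times the male mean with a median of 1.70, and it was at least 2 times for 19. In limma 0 members passed (smallest adjusted p = 0.327) beside 0% of tested genes, and 18 had an unadjusted p under 0.05, all lower in males, beside 2.36% of tested genes. Limma-voom passed 0, and 3 with sample weights, beside 0.821% of tested genes. Leaving out both pools that stood apart, which are healthy, changed no estimate in ascites, and the median stayed at -0.21 log2 units. It leaves 1 pool in each healthy group, so the spread then comes from the ascitic pools alone. The count without them reflects that change of spread and no further difference between the sexes. Limma passed 5 without both pools that stood apart, beside 1.21%.

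Within healthy pools the order rested on healthy female 2. Both female pools lay above both male pools for 31 members, beside 15.4% of all tested genes, and the reverse held for 15, beside 16.2%. With total reads the order turned round, with 18 and 35 members, beside 8.38% and 22.6%. In both states at once, on the deposited scale only, female pools lay above male pools for 12 members, beside 4.06% of tested genes. Male pools lay above female pools for 1, beside 4.63%. The median of male minus female was -0.30 log2 units with all pools and 0.07 without healthy female 2, where 65 of 149 members were below 0; without the pool labelled healthy male 1 it was -0.40. It was also above 0 with total reads, at 0.08, against 0.26 for all genes. Limma passed 0 members (smallest adjusted p = 0.385) beside 0% of tested genes, with 12 at an unadjusted p under 0.05 beside 8.87%, and limma-voom passed 0, weighted by sample or not. Without healthy female 1 limma passed 49 members (32.9%), of which 48 were lower in males, beside 25% of all tested genes; without both pools that stood apart it passed 1, beside 0.559%.

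**Figure D5:**
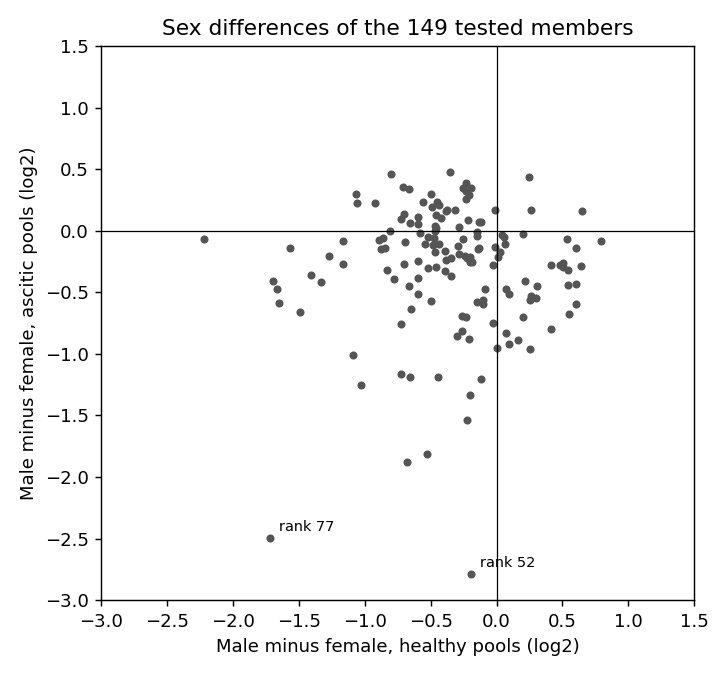
Male minus female log2 difference in healthy pools (horizontal) and in ascitic pools (vertical) for the 149 tested members. Most points lie below the horizontal line at 0 (111 of 149) and left of the vertical line (113 of 149, a position that depends on healthy female 2); the members of rank 52 and 77 lie lowest.

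A pair of members, singled out after their values were seen, had the widest difference between the sexes. The member of rank 77 held the most reads of the set, at 135588 and 158371 normalized reads in healthy females, 82478 and 23967 in healthy males, 11723 and 7231 in ascitic females and 1826 and 1411 in ascitic males. Females were higher than males in each state without overlap, and the pool labelled healthy male 1 lay between the females and healthy male 2. Male minus female was -2.11 ± 0.40 log2 units (standard error; limma, adjusted p = 0.250). It passed in limma-voom with sample weights (adjusted p = 0.0181) and did not pass in limma-voom without them. Leaving out the pool labelled healthy male 1, the healthy male pool nearer the females, by itself widens the difference, to -2.54 log2 units. Without that pool and healthy female 2 it was -2.50. Such fits leave 1 pool in a healthy group, so only the size is given for them. Male minus female was below 0 in 18 of 18 alternatives.

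The member of rank 52 had separate sexes in ascites and overlapping ones in health. It held 18334 and 13272 normalized reads in healthy females, 9957 and 18656 in healthy males, 3940 and 4419 in ascitic females and 718 and 462 in ascitic males. In ascitic pools male minus female was -2.78 ± 0.40 log2 units (standard error; limma, adjusted p = 0.327). The log2 difference between ascitic and healthy pools was -1.89 in females and -4.48 in males. The difference of -2.59 did not pass (limma interaction, standard error 0.57, adjusted p = 0.601). Fits without a pool leave a group with 1 pool, so no adjusted p of the interaction is given for them. The sex difference in ascites passed in limma-voom with sample weights (adjusted p = 0.00889). Without both pools named above it was the same -2.78 log2 units, since neither is an ascitic pool. That fit leaves 1 pool in each healthy group, so its spread comes from the ascitic pools and only the size is given.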

How the data were processed

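The deposited table, though named as counts, holds values on a log2 scale; the authors' processing notes name, among other tools and without saying what each did, TopHat2 2.0.9, HTSeq 0.6.1 and DESeq2 1.22.1, and the build is not given in the sources used here. Per the labels' protocols, libraries were poly(A)-selected from RNA with an integrity number above 7.5. The deposited log2 values share 1 lowest value, 4.11, and have the form of a variance-stabilizing transformation of reads over size factors. Inverting it gave whole reads for 100% of values within 0.01 of a read, and the size factors. Reads are not molecules, so depth limits counting error only. The p-values set each difference against the spread between pools.

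Limma 3.58.1 (R 4.3.3, trend and robust options) was fitted to the log2 values of the 13766 genes that had 15 reads in all and, in 2 or more pools, 10 reads per library of median size, with Benjamini-Hochberg adjustment over all of them and a threshold of 0.05. Sex came from an additive model with status, and the contrasts within states and the interaction from a model of 4 group means. The fits for sex and the interaction were also run on simulated counts with known changes. Those counts held no pool lying apart and none between the sexes, so that run does not bear on the 2 pools named above. The reference table (assembly GRCg7b) holds 25635 genes and 0 filled Ensembl cells. Named genes are therefore the 2 members of widest gap; other members appear by rank, chosen after their values were seen except those at the edge. Gene lists were not used. The members and the tests were chosen with earlier results of these data known. Replicate numbers mark no shared batch in the labels, and the main fits did not pair pools by them. The correlation of their deviations from group means ran from -0.42 to 0.32. With 2 pools per group these values cannot exclude shared handling of pools with the same number.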

Additional observations from a re-analysis of the deposited data

Results flagged for a closer look

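The share of reads of the set, 3 variants of its level and 11 single members were each examined in both states for 1 pool lying apart, by the gap to its nearest neighbour over the whole range (Dixon's test). In 52 sets of 4 values 3 had one, and chance gives about 1 in 20; 2 of the 3 are the same member on 2 scales, and the single members include some picked for their spread, so the count is no rate. Over all 150 members healthy female 2 lay apart on the log2 scale for 8.00%, beside 5.40% of all tested genes. In all 3 flagged sets the pool lying apart was healthy female 2, high among the healthy pools. It held 96571 normalized reads of the member of rank 4, where the other healthy pools held 4893 to 9311, and in recovered reads, which carry no size factor, 46683 against 4626 to 7977. For the member of rank 5 it held 5832 normalized reads, or 12.52 on the deposited log2 scale, against 1081 to 1275 normalized reads in the other healthy pools. In recovered reads these were 2819 against 1022 to 1092.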

How the results depend on the processing

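Between 105 and 146 of the 150 members were chosen again under the other scales, scalings and numbers of abundant genes (105 with total reads, 115 with log2 of normalized reads plus 1), 106 without healthy female 2 and the pool labelled healthy male 1, and 111 to 132 without 1 pool. The median log2 difference of -1.92 became -1.42 with total reads, -2.32 with log2 of normalized reads plus 1 and -2.32 with limma-voom, the last 2 of which compress scarce genes less, and ran from -2.08 to -1.76 without 1 pool. The difference in share of reads was 1.81 points, 1.67 to 1.98 without 1 pool, and 4.75 points with the 100 abundant genes left out of the denominator. Taking 100 or 200 members only shortens or extends the same ranking. The 0 members called for sex became 2 with sample weights, 2 without both pools and 0 to 1 without 1 pool. For sex in ascites they became 3, 5 and 0 to 0, for sex in health 1 without both pools and 0 to 49 without 1 pool, and for the interaction 0 to 28 without 1 pool. Of all tested genes, 0.734%, 0.748% and at most 0.189% passed for sex, 0.821%, 1.21% and at most 0.0799% for sex in ascites, 0.559% and at most 25% for sex in health, and at most 16.2% for the interaction; the cause was not tested. Where 1 pool is left in a group, its spread is taken from the other groups. Leaving out healthy pools did not change the estimates for sex in ascites. Their median stayed at -0.21 log2 units, and only the spread used in the test changed. With the replicate block 0 members passed in each of these 4 tests, and the median log2 difference was -1.92. The log2 difference ran from -5.64 to -4.80 for ENSGALG00000043779 and from -3.72 to -3.39 for ENSGALG00000041767 without 1 pool.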
